A study of Homo sapiens with 46 samples.

Results

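The genes described here are the 7 tRNA genes of the heavy-strand transcript that lie directly before a reading frame silenced in the study. In the order of the frames that follow them (ND1, ND2, COX2, ATP8, ND3, ND4L and ND5) they are MT-TL1, MT-TM, MT-TD, MT-TK, MT-TG, MT-TR and MT-TL2. They were defined by their place in mitochondrial DNA (mtDNA), and they are 7 of 22 mitochondrial tRNA genes, 37 mtDNA genes and 58735 genes in the count table. HEK293T cells, an established human embryonic kidney line described as wild type, were incubated for 48 hours with 2 µM of one chimera each, delivered with Endo-Porter. In a chimera, an uncharged antisense oligomer (morpholino) is coupled to pCox4, a targeting peptide from yeast that brings its cargo into the mitochondrial matrix. For the control, pCox4 was added in the buffer of the coupling reaction with no morpholino. The comparisons with the control thus include no cells given a morpholino of unrelated sequence. Where a treatment is compared with the other treatments, those cells had received morpholinos aimed at other frames. The 46 libraries fall into 12 conditions: 3 libraries each for ND2 and COX2 silencing, and 4 each for silencing of ND1, ND3, ND4L, ND5, COX1, COX3, CYTB, ATP6 and ATP8 and for the control. Batch 1 holds replicates 1 and 2, and batch 2, made on another day and with other reagents, holds replicates 3 and 4.

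Human mtDNA is transcribed from both strands into long precursors, in which tRNAs lie between the rRNAs and most of the mRNAs. RNase P cuts each tRNA at its 5′ end and the RNase Z enzyme ELAC2 cuts it at its 3′ end, so that release of a tRNA also frees the ends of its neighbours. Mature mitochondrial tRNAs end in an added CCA and in general carry no poly(A) tail. The RNA here was enriched for poly(A) tails, and which share of the counts on a tRNA gene came from mature tRNA, and which from longer transcripts that still contain it, was not tested.

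The tRNA sequences that the results turn on are given first, as DNA in the sense of the tRNA and with the anticodon in capitals. MT-TL1 encodes the leucine tRNA that reads UUA and UUG codons, and it was the gene with the clear response. MT-TM encodes the methionine tRNA and MT-TR the arginine tRNA. MT-TL2 encodes the other leucine tRNA, which reads CUN codons, and it had too few counts to pass the filter used here. The sequences were read from the GENCODE 29 transcripts, whose genes and coordinates (GRCh38) match the count table, and all lie on the plus strand.
MT-TL1, chrM:3230-3304: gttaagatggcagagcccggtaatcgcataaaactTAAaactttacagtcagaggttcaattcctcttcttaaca
MT-TM, chrM:4402-4469: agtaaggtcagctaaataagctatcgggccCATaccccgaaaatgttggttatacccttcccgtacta
MT-TR, chrM:10405-10469: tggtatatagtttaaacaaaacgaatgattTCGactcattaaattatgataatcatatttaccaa
MT-TL2, chrM:12266-12336: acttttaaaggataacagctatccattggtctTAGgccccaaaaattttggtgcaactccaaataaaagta

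The first 35 bases of 4 targeted frames show where the chimeras bind relative to these tRNA genes. Capitals mark the stretch to which the morpholino listed for that chimera is complementary over its whole length.
MT-ND1, from chrM position 3307: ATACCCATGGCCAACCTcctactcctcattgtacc
MT-CO2, from chrM position 7586: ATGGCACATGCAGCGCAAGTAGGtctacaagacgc
MT-ATP8, from chrM position 8366: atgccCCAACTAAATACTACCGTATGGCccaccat
MT-ND5, from chrM position 12337: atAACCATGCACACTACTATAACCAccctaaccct
The ND1 morpholino, aggttggccatgggtat, thus covers bases 1 to 17 of its frame, and its site begins 2 bases after the end of MT-TL1. The COX2 site begins directly after MT-TD, the ND5 site 2 bases after MT-TL2 and the ATP8 site 6 bases after MT-TK. The ND2, ND3 and ND4L morpholinos could not be matched in full to the reference from the listing used here, in which bases may be missing, so their sites are not given. None of the listed morpholinos is aimed at a tRNA gene. The longest run of the ND1 morpholino that is complementary to MT-TL1 is 5 bases.

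The libraries held 18876395 to 100698084 counts, with a median of 23413171, and COX3 replicate 4 alone exceeded 28121898. Genes of mtDNA took 3.80% to 5.34% of the counts, with 4.56% ± 0.414 in the control (SD, n = 4) and 4.45% ± 0.402 after ND1 silencing (SD, n = 4). KRT8, KRT18, VIM and PAX2, the genes used here to check the identity of the line, were detected in all libraries (PAX2, the lowest of them, at 4.97 to 9.82 CPM, that is, counts relative to the library size), whereas PTPRC and ALB stayed at or under 0.533 CPM and INS had no count. The study's methods describe the replicates as biological, and p-values measure the spread between these libraries. CPM values below are TMM-normalized, that is, relative to a library size scaled by the trimmed mean of M-values. Fold changes and p-values come from the quasi-likelihood test of edgeR, with terms for the condition and the batch, over 20272 genes that passed a filter on low counts. A gene was called changed in a treatment at a Benjamini-Hochberg adjusted p under 0.05.

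Of the 7 tRNA genes, 6 passed the filter, and MT-TL1 had by far the most counts. They ran from 126 to 2365 per library, or to 1042 without COX3 replicate 4. MT-TR had 65 to 573 counts (median 151.5) and MT-TG, the glycine tRNA gene at chrM:9991-10058, had 56 to 262. MT-TM had 5 to 66 (median 16.5), and 6 libraries were under 10 counts. MT-TD, the aspartate tRNA gene at chrM:7518-7585, had 9 to 115, and MT-TK, the lysine tRNA gene at chrM:8295-8364, had 8 to 79 (median 20.0). MT-TL2 had 0 to 19 (median 4.0), with 42 libraries under 10 and 2 libraries at 0, and it did not pass the filter. The libraries at 0 were ND2 replicate 3 and ND5 replicate 2, in which 3 counts, the floor used here for a count of 0, would be 0.138 and 0.141 CPM.

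Per kilobase of gene, MT-TL1 stood at 328 ± 21.9 CPM in the control (SD, n = 4 for this and the following values). MT-TR followed at 109 ± 27.3 and MT-TG at 55.1 ± 15.7 CPM per kilobase, each below the gene before it by more than these spreads. MT-TD at 17.1 ± 8.66, MT-TM at 13.0 ± 5.03 and MT-TK at 11.6 ± 2.43 CPM per kilobase lay within each other's spread. MT-TL2 was lowest at 3.38 ± 1.29. The frames after them stood between 504 CPM per kilobase (MT-ATP8) and 6883 (MT-CO2). All 7 tRNA genes were thus far below the frame that follows them, and MT-TL1 came closest, at 20.3% ± 0.998 of MT-ND1 per length (SD, n = 4). A gene of 65 to 75 bases holds few positions at which a read of 50 bases lies wholly inside it, so levels per length of the tRNA genes and of the frames are not on an equal footing.

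**Figure D1:**
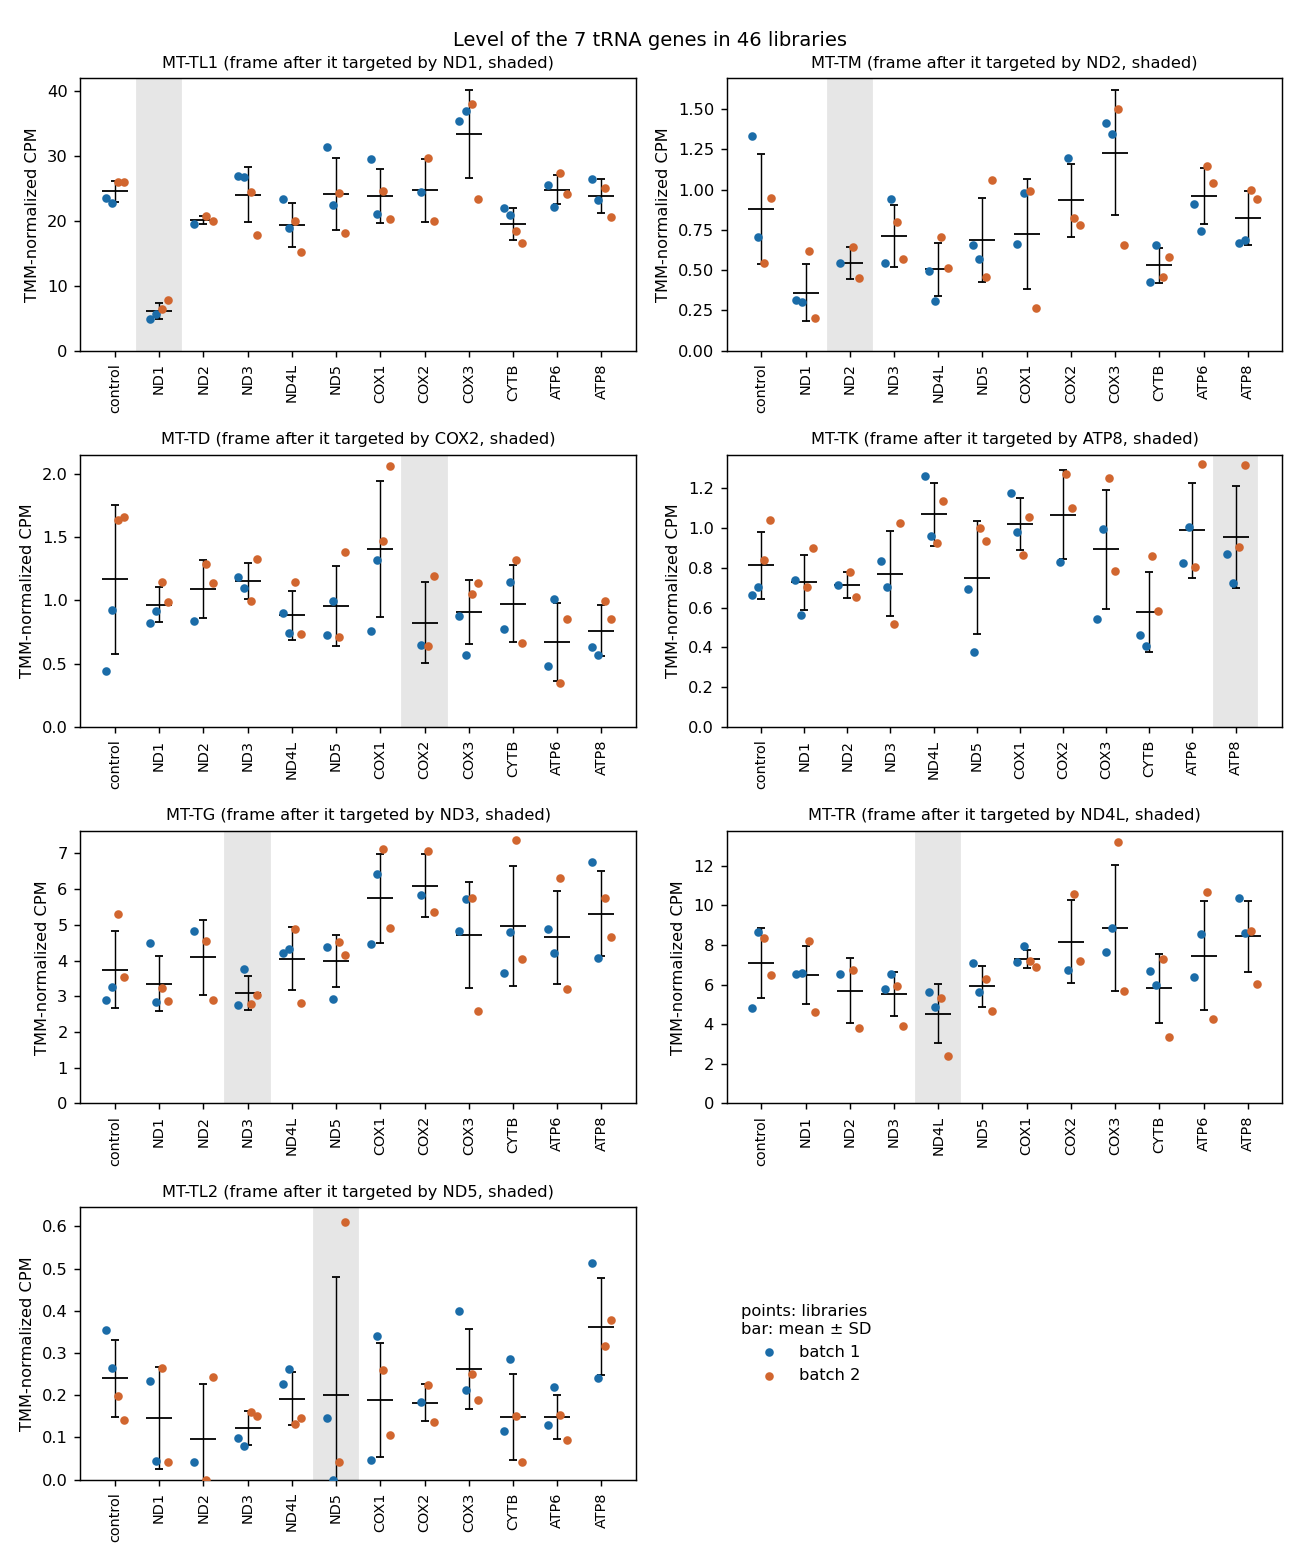
Level of each tRNA gene (TMM-normalized CPM, linear axes from 0, a different scale in each panel) in the 46 libraries, by condition. Points are libraries coloured by batch, bars are mean ± SD, and shading marks the chimera aimed at the frame after the gene. The ND1 libraries of MT-TL1, between 4.91 and 7.75 CPM, stand apart from all others of that panel.

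Whether silencing of a frame changes the tRNA gene before it was first examined for MT-TL1 and ND1. MT-TL1 had 531, 518, 525 and 549 counts in the 4 control libraries and 126, 128, 145 and 189 counts after ND1 silencing. In normalized terms the control libraries stood at 23.6, 22.8, 26.0 and 26.0 CPM and the ND1 libraries at 4.91, 5.56, 6.39 and 7.75 CPM. Each ND1 library held 21.2% to 29.8% of the mean control level of its batch, and the groups did not overlap.

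The log2 fold change of MT-TL1 after ND1 silencing was -1.997 (standard error 0.158, 95% interval -2.31 to -1.68, adjusted p = 3.28e-13, edgeR quasi-likelihood test), a level 3.99-fold lower than in the control. Of 20272 genes tested in this comparison 18 were called, or 0.0888%, and MT-TL1 had both the lowest p and the lowest fold change of them. The fall was present within each batch, at -2.15 in batch 1 alone (adjusted p = 1.28e-09) and -1.87 in batch 2 alone (adjusted p = 9.37e-06, both edgeR). Against the mean of the other 10 treatments, which leaves the control libraries out of the contrast, MT-TL1 was lower by -1.93 on the log2 scale after ND1 silencing (standard error 0.131, adjusted p = 3.49e-16, edgeR). In that comparison 0.0543% of the genes tested were called.

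The genes on either side of MT-TL1 did not fall with it to this extent. MT-RNR2, the 16S rRNA gene that ends directly before MT-TL1, had 70692 to 85129 counts after ND1 silencing and 78684 to 82768 in the control. Its ND1 libraries held 76.2% to 95.9% of the control of their batch. The log2 fold change of MT-RNR2 was -0.21 (standard error 0.063, adjusted p = 0.138, edgeR), which was not called against the control, while against the other treatments it was -0.33 (adjusted p = 3.90e-05, edgeR).

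MT-ND1, the frame after MT-TL1, rose. It had 32111, 31691, 32595 and 37085 counts in the control and 60525, 60158, 68386 and 65959 after ND1 silencing, which is 161% to 185% of the control of the batch. Its log2 fold change was 0.79 (standard error 0.068, adjusted p = 3.50e-12, edgeR). MT-ND2, the next frame in the same transcript, was also higher after ND1 silencing, by 0.46 (standard error 0.062, adjusted p = 6.39e-06, edgeR).

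Relative to both neighbours, MT-TL1 was therefore low in the ND1 libraries. Per length, it held 18.9% to 21.1% of MT-ND1 in the control libraries and 2.65% to 3.65% in the ND1 libraries. In the other 10 treatments this percentage lay between 12.01% (an ND4L library) and 30.5% (a COX3 library). Against MT-RNR2, again per length, MT-TL1 held 13.2% to 14.5% in the control and 3.38% to 5.41% after ND1 silencing. The percentage of MT-ND1 moves with the rise of that mRNA as well as with the fall of MT-TL1, and the percentage of MT-RNR2 does not contain that rise.

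**Figure D2:**
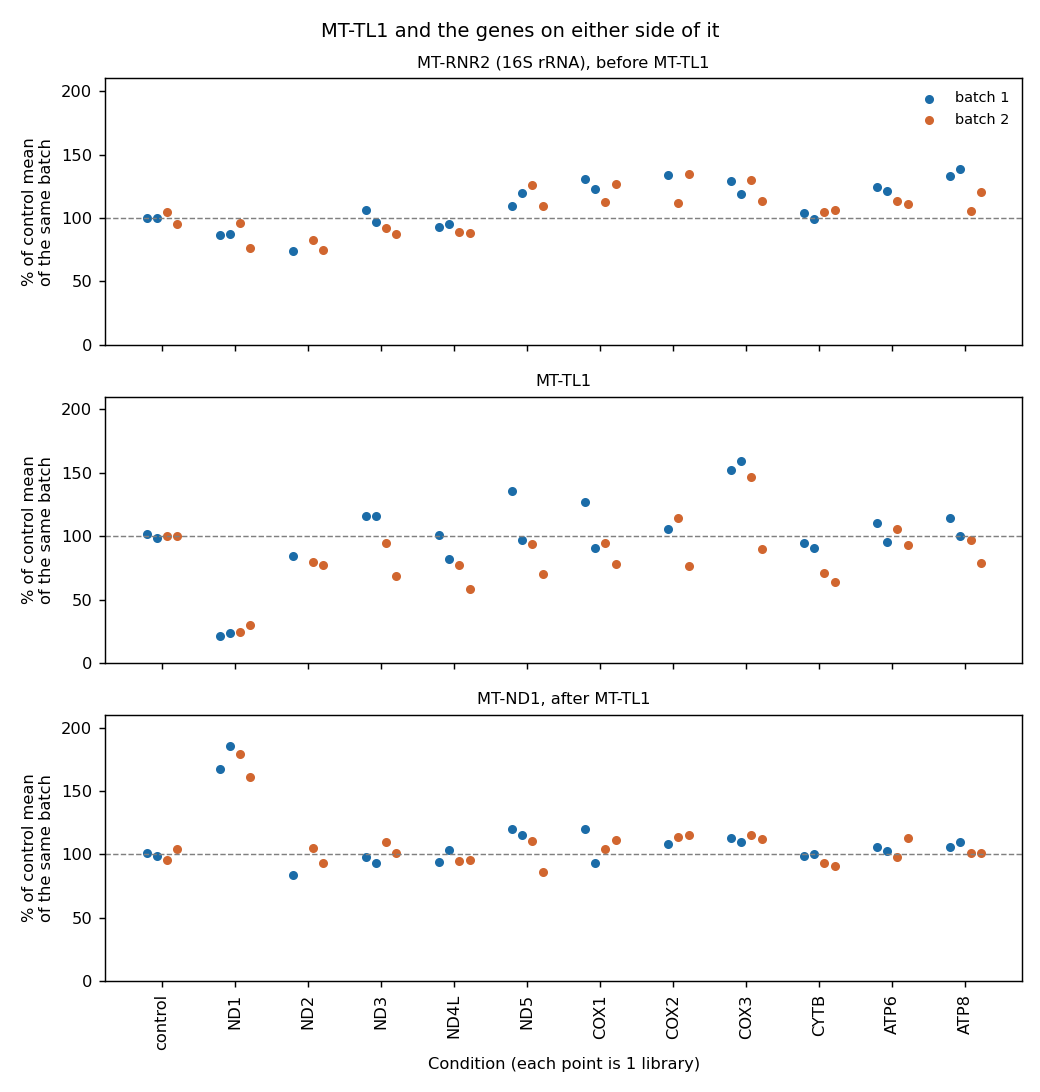
MT-TL1 (middle) and the genes directly before it (MT-RNR2, top) and after it (MT-ND1, bottom), each point being 1 library as a percentage of the mean control level of its batch, on the same axis from 0. In the ND1 libraries MT-TL1 lies at 21.2% to 29.8%, MT-RNR2 at 76.2% to 95.9% and MT-ND1 at 161% to 185%.

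Across the other 10 treatments, MT-TL1 was not called against the control with the filter on low counts. Without the filter it was called higher after COX3 silencing (0.43, adjusted p = 5.20e-05, edgeR). It was then also called lower after CYTB (-0.33, adjusted p = 0.0137) and ND4L silencing (-0.35, adjusted p = 0.00786, both edgeR). MT-TL1 passes the filter, and leaving the filter out hardly moved its estimates but lowered its p-values. After ND1 silencing its unadjusted p went from 1.62e-17 to 1.17e-98 (edgeR). The share of all genes called without the filter is not given here. The condition means were 24.8 ± 2.23 CPM for ATP6, 24.7 ± 4.86 for COX2, 24.6 ± 1.64 for the control, 24.1 ± 5.56 for ND5, 24.04 ± 4.24 for ND3, 23.9 ± 4.18 for COX1 and 23.9 ± 2.58 for ATP8 (SD, n = 3 for COX2 and 4 for the rest). Below these came ND2 at 20.1 ± 0.577 (SD, n = 3), CYTB at 19.5 ± 2.42 and ND4L at 19.4 ± 3.35 CPM (SD, n = 4 each). In this order from ATP6 to ND4L the ranges of neighbouring conditions overlapped. ND1 was last at 6.15 ± 1.23 CPM and COX3 was first at 33.4 ± 6.77 CPM (SD, n = 4 each).

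After COX3 silencing MT-TL1 stood at 35.3, 37.0, 38.0 and 23.4 CPM, the last value being that of the deeply sequenced replicate 4. Those libraries were at 152%, 159%, 146% and 90.2% of the control of their batch, so 3 lay above all control libraries and replicate 4 lay below both control libraries of its batch. The log2 fold change against the control was 0.42 (standard error 0.133, unadjusted p = 0.00264, adjusted p = 0.176, edgeR) and was not called. The background in that comparison was 0.306% of genes called. Against the other 10 treatments MT-TL1 was higher after COX3 silencing by 0.73 (standard error 0.093, adjusted p = 1.52e-06, edgeR), with 0.0543% of genes called. That mean contains the low ND1 libraries. With ND1 left out of the mean, an alternative added after the data were seen, the difference was 0.54 (adjusted p = 0.00322, edgeR). Without COX3 replicate 4 it was 0.87 (adjusted p = 7.17e-08), and in batch 2 alone, where that library is 1 of the COX3 pair, it was 0.64 and no longer called (adjusted p = 0.173, all edgeR). MT-RNR2 was also higher after COX3 silencing, at 113% to 130% of the control of its batch (log2 fold change 0.30 with a standard error of 0.063, edgeR adjusted p = 0.0186). MT-RNR2 was called higher by as much after COX2 (0.35), ATP8 (0.31) and COX1 silencing (0.30, edgeR adjusted p = 0.00580, 0.0188 and 0.0299), where the log2 fold changes of MT-TL1 were 0.03, -0.05 and -0.04.

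Lower values of MT-TL1 that were not called with the filter came after ND4L (-0.35, adjusted p = 0.231), CYTB (-0.34, adjusted p = 0.252) and ND2 silencing (-0.27, unadjusted p = 0.0773, all edgeR). Those after ND4L and CYTB silencing were called without the filter, as given above. The CYTB value was also called when only the libraries compared were used (-0.33, adjusted p = 0.0361, edgeR). In the CYTB libraries the level was 94.7% and 90.3% of the control in batch 1 and 71.2% and 63.9% in batch 2. The ND4L libraries were at 101% and 81.8% in batch 1 and at 77.1% and 58.5% in batch 2.

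The chimera aimed at the frame directly after a tRNA gene is called its cognate chimera below. Cognate comparisons were tested for 6 genes, and 1 was called, MT-TL1 after ND1 silencing, described above. The others give no such fall. The share of all genes called in the remaining comparisons of this kind was 0.0247% for ND2, 0.469% for COX2, 0.0641% for ATP8, 0.00987% for ND3 and 0.148% for ND4L. Against the other treatments, again 1 of 6 was called, beside backgrounds of 0.0296%, 0.00987%, 0.0148%, 0.00987% and 0.0197% in the same order.

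MT-TR, the arginine tRNA gene before ND4L, came nearest to the threshold. It had 109, 196, 169 and 137 counts in the control and 124, 111, 121 and 65 after ND4L silencing. At 5.60, 4.84, 5.32 and 2.38 CPM the ND4L libraries overlapped the control libraries, which stood at 4.84, 8.64, 8.36 and 6.49 CPM. Its log2 fold change was -0.66 (standard error 0.249, 95% interval -1.16 to -0.16, unadjusted p = 0.0106, adjusted p = 0.212, edgeR). Against the other treatments the difference was -0.62 (unadjusted p = 0.00234, adjusted p = 0.238, edgeR). Both were called when no filter on low counts was used (adjusted p = 0.000971 and 1.51e-05, edgeR). The estimates stayed at -0.66 and -0.62 in that fit, while the unadjusted p fell to 1.58e-06 and 5.09e-09 (edgeR). The share of all genes called in it is not given here. Against the control the estimate was -0.37 in batch 1 alone and -0.98 in batch 2 alone, where ND4L replicate 4 held 32.1% of the control level. Without that library it was -0.44. The targeted mRNA, MT-ND4L, was at 73.0% to 92.3% of the control of its batch, a log2 fold change of -0.29 that was not called (adjusted p = 0.223, edgeR).

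MT-TM, the methionine tRNA gene before ND2, had 30, 16, 11 and 20 counts in the control and 13, 14 and 11 after ND2 silencing. Its log2 fold change was -0.70 (standard error 0.385, 95% interval -1.47 to 0.07, unadjusted p = 0.0748, edgeR), which spans values from a marked fall to no fall at all. With 1 library left out it lay between -0.88 and -0.43. MT-ND2 itself was raised to 191% to 217% of the control of its batch in these libraries (log2 fold change 1.02 with a standard error of 0.066, edgeR adjusted p = 9.01e-17). Per length, MT-TM held 0.346% to 0.975% of MT-ND2 in the control libraries and 0.141% to 0.211% after ND2 silencing. The ranges, of 4 and 3 libraries, do not overlap, and that percentage contains the rise of MT-ND2. For how many other genes such ranges do not overlap is not given here. In the other treatments the percentage lay between 0.112% (an ND1 library) and 0.956% (a COX3 library). The ND1 libraries, at 0.112% to 0.280%, overlapped those of ND2.

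MT-TG, before ND3, had 65, 74, 107 and 75 counts in the control and 56, 96, 70 and 80 after ND3 silencing. Its groups overlapped, and the log2 fold change was -0.27 (standard error 0.244, 95% interval -0.76 to 0.22, unadjusted p = 0.277, edgeR). The estimate was 0.10 in batch 1 alone and -0.60 in batch 2 alone. Against the other treatments, several of which held more MT-TG than the control, it was -0.57 (unadjusted p = 0.00279, adjusted p = 0.823, edgeR), and that difference was called when no filter was used (adjusted p = 0.00506, edgeR). MT-ND3 rose to 152% to 205.5% of the control of its batch (log2 fold change 0.80, with a standard error of 0.126 and an edgeR adjusted p = 0.00113), and MT-TG per length went from 2.96% to 4.89% of it in the control to 1.36% to 2.64%. In the other treatments this percentage lay between 1.55% (a COX3 library) and 6.98% (an ATP6 library), a range that overlaps that of the ND3 libraries.

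MT-TD, before COX2, had 10, 21, 33 and 35 counts in the control and 14, 17 and 26 after COX2 silencing. The control itself differed by batch, with 0.444 and 0.926 CPM in batch 1 and 1.63 and 1.66 CPM in batch 2. The log2 fold change was -0.54 (standard error 0.331, 95% interval -1.21 to 0.12, unadjusted p = 0.107, edgeR), with -0.09 in batch 1 alone and -0.87 in batch 2 alone.

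MT-TK, before ATP8, had 15, 16, 17 and 22 counts in the control and 22, 18, 20 and 28 after ATP8 silencing. Its log2 fold change was 0.23 (standard error 0.270, 95% interval -0.32 to 0.77, unadjusted p = 0.407, edgeR), and between 0.08 and 0.32 with 1 library left out. Of the tested genes it alone had a cognate estimate above 0. Per length it held 1.87% to 2.75% of MT-ATP8 in the control and 2.27% to 2.66% after ATP8 silencing.

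MT-TL2, before ND5, had 8, 6, 4 and 3 counts in the control and 4, 0, 1 and 15 after ND5 silencing. In normalized terms these were 0.355, 0.264, 0.198 and 0.142 CPM in the control, against 0.146, 0, 0.0417 and 0.610 CPM. The groups overlapped, and MT-TL2 entered a test only in the alternative without the filter (log2 fold change -0.22, unadjusted p = 0.727, edgeR). The mRNA MT-ND5 was at 75.6% to 96.0% of the control of its batch (log2 fold change -0.19, adjusted p = 0.458, edgeR).

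The genes directly before the other tested members were not called after the cognate chimera either. The log2 fold change was 0.27 for MT-ND3, before MT-TR, after ND4L silencing (adjusted p = 0.312) and -0.04 for MT-CO3, before MT-TG, after ND3 silencing. It was 0.01 for MT-CO2, before MT-TK, after ATP8 silencing. MT-TQ and MT-TS1, the glutamine and serine tRNA genes of the opposite strand that precede MT-TM and MT-TD, had -0.28 (standard error 0.414) after ND2 and -0.54 (standard error 0.546) after COX2 silencing (all edgeR). MT-TS2, the serine tRNA gene before MT-TL2, did not pass the filter.

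**Figure D3:**
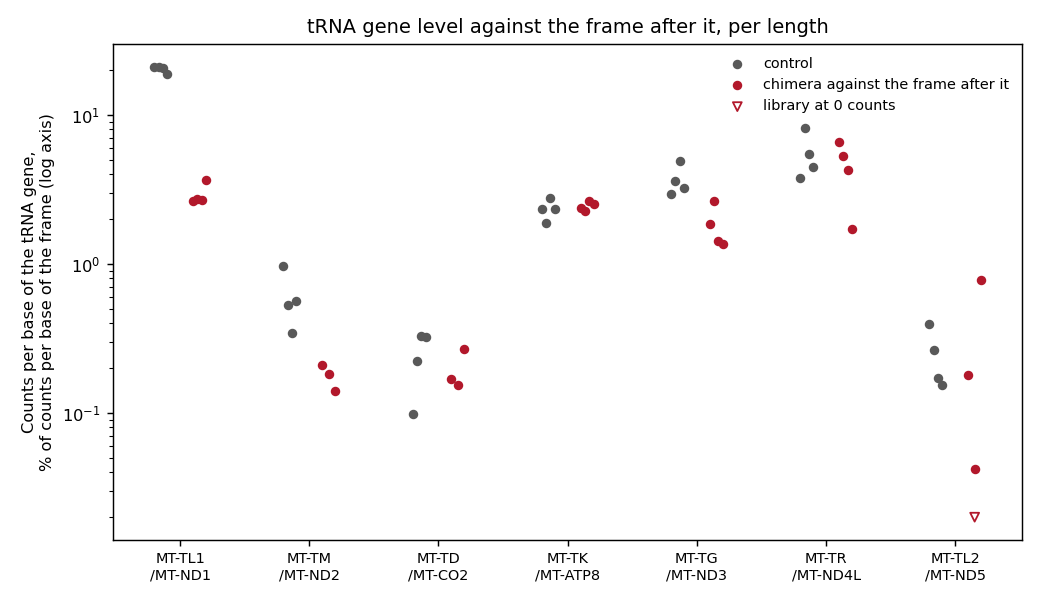
Counts per base of each tRNA gene as a percentage of counts per base of the frame after it (log axis), in the control libraries (grey) and in the libraries of the chimera against that frame (red). The open triangle at the bottom marks the ND5 library with no MT-TL2 count and is not at its value. MT-TL1 goes from 18.9% to 21.1% in the control to 2.65% to 3.65%, while MT-TK overlaps the control.

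Over all treatments, the 6 genes gave 66 comparisons with the control. The one already described was called, and 12 had an unadjusted p under 0.05 by edgeR, 8 lower and 4 higher. That is 18.2% of the 66, beside 9.79% over all genes and the same treatments. The share of all genes called in the remaining treatments was 0.00987% for ATP6, 0.0543% for COX1, 0.548% for CYTB and 0.158% for ND5. In the 66 comparisons with the other treatments, both calls were of MT-TL1, after ND1 and after COX3 silencing, and 22 had an unadjusted p under 0.05 (33.3%, beside 6.98% over all genes). They include MT-TL1 after ATP6, ATP8, COX1, COX2, ND3 and ND5 silencing, where the mean of the other treatments contains the low ND1 libraries. There MT-TL1 differed by 0.21 to 0.30 from the other treatments but by -0.05 to 0.03 from the control. The 22 comparisons are therefore not independent of each other. Without the filter on low counts the calls rose to 7 against the control and 10 against the other treatments, all of MT-TL1, MT-TR and MT-TG. MT-TL1 after ATP6, COX2 and ND5 silencing is among the 10. All backgrounds given here are from the fit with the filter, so whether this rise is particular to the tRNA genes was not tested. With the filter, the backgrounds not yet given for the comparison with the other treatments were 0.00987% for ATP6, 0.0543% for COX1, 0.0592% for CYTB and 0.774% for ND5. The treatments are set against the same 4 control libraries, so their values are not independent of each other.

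After ND1 silencing MT-TM had the next lowest value after MT-TL1. It had 8, 7, 14 and 5 counts, or 0.312, 0.304, 0.617 and 0.205 CPM, against 0.544 to 1.33 CPM in the control. Of the ND1 libraries 1, replicate 3, lay among the control libraries. The log2 fold change was -1.30 (standard error 0.375, unadjusted p = 0.00105, adjusted p = 0.122, edgeR), and against the other treatments it was -1.03 (adjusted p = 0.205, edgeR). The remaining tested genes had estimates of -0.23 (MT-TD), -0.15 (MT-TG), -0.15 (MT-TK) and -0.13 (MT-TR) after ND1 silencing, none of them called.

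Values of MT-TM below the control that were not called also came after ND4L (-0.80, unadjusted p = 0.0279) and CYTB silencing (-0.74, unadjusted p = 0.0424, both edgeR). After COX3 silencing it was at 1.42, 1.35, 1.502 and 0.654 CPM, with replicate 4 again lowest. Against the other treatments that was a log2 difference of 0.84 (adjusted p = 0.237), and without COX3 replicate 4 it was 1.13 and called (adjusted p = 0.0249, both edgeR).

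For MT-TG the highest values, none of them called with the filter on low counts, came in treatments that aim at other frames. The means were 6.09 ± 0.879 CPM after COX2 (SD, n = 3), 5.74 ± 1.25 after COX1 and 5.31 ± 1.19 after ATP8 silencing (SD, n = 4 each), against 3.75 ± 1.07 CPM in the control (SD, n = 4). The log2 fold changes were 0.71 (unadjusted p = 0.00533, adjusted p = 0.159), 0.63 (unadjusted p = 0.00890, adjusted p = 0.514) and 0.51 (unadjusted p = 0.0314, adjusted p = 0.426, all edgeR), so none was called. Without the filter MT-TG was called after COX2 (0.71, adjusted p = 0.00440) and COX1 silencing (0.62, adjusted p = 0.0283, both edgeR). All 3 COX2 libraries lay above the highest control library, at 5.30 CPM, but those of COX1 and ATP8 overlapped the control. The share of all genes whose COX2 and control libraries do not overlap is not given here. The remaining conditions stood between 3.09 ± 0.470 (ND3) and 4.96 ± 1.68 CPM (CYTB).

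MT-TR ranged from 4.54 ± 1.47 CPM after ND4L to 8.85 ± 3.19 after COX3 silencing (SD, n = 4 each), with the control at 7.08 ± 1.78 (SD, n = 4), and the ranges of neighbouring conditions overlapped. Replicate 4 held the lowest MT-TR level of its group in 10 of 11 treatments and the lowest MT-TL1 level in 8 of 11, but in neither case in the control. After ND1 silencing replicate 4 held the highest MT-TL1 level, so the fall of MT-TL1 there does not rest on it. For MT-TR after ND4L silencing, the estimate moved from -0.66 to -0.44 without replicate 4, as given above. MT-TD was lowest after ATP6 silencing, at 0.670 ± 0.310 CPM (log2 fold change -0.76, unadjusted p = 0.0198, adjusted p = 0.474, edgeR), and highest after COX1 silencing, at 1.40 ± 0.538 (SD, n = 4 each). MT-TK lay between 0.578 ± 0.201 CPM after CYTB silencing and 1.07 ± 0.159 after ND4L silencing (SD, n = 4 each). The means of MT-TL2 lay between 0.0954 CPM (ND2) and 0.362 CPM (ATP8), which rest on 7 and 34 counts in all.

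**Figure D4:**
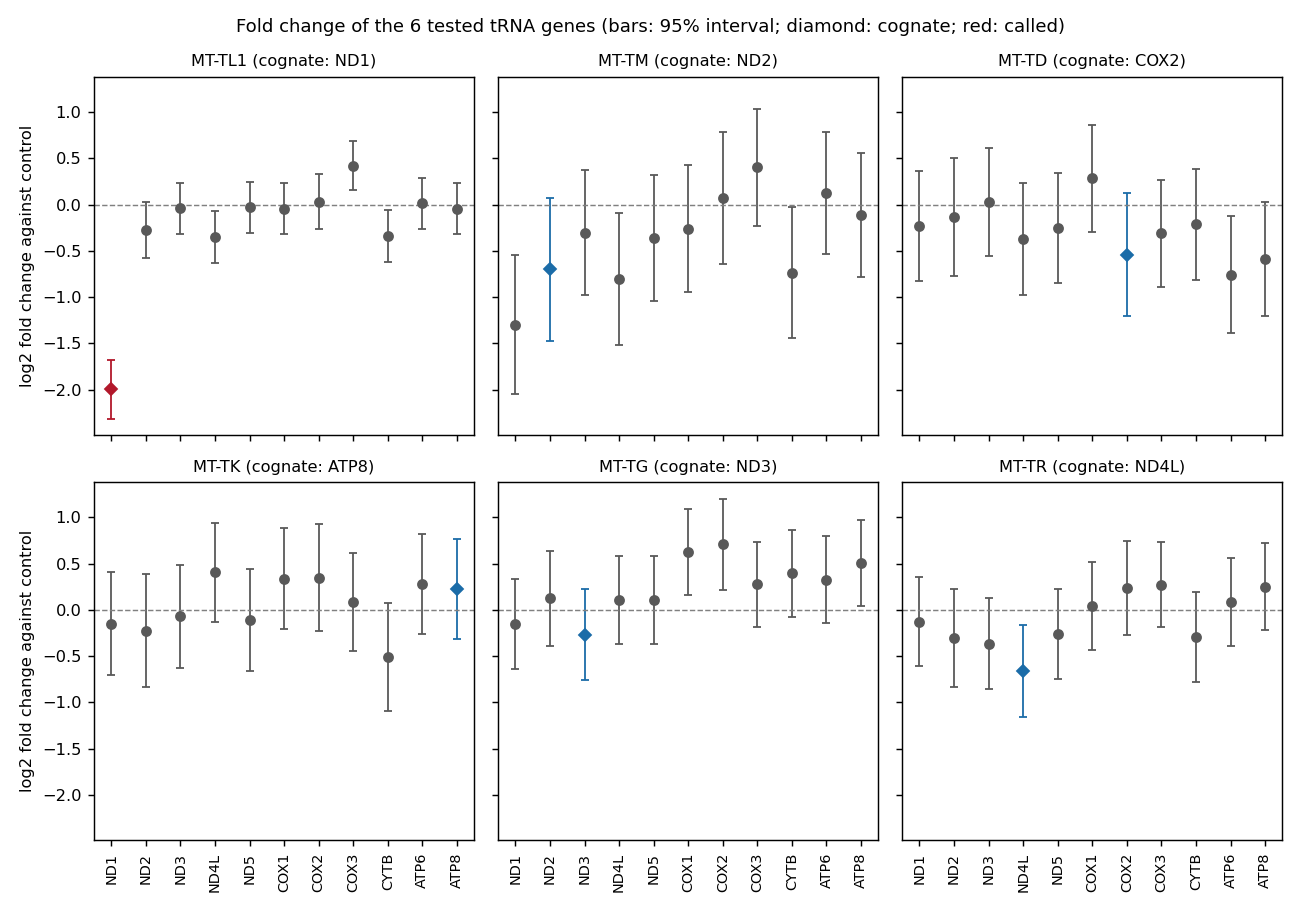
Log2 fold change against the control of the 6 tested tRNA genes in the 11 treatments, with 95% intervals. Diamonds mark the chimera aimed at the frame after the gene, and red marks the call. MT-TL1 after ND1 silencing, at -1.997, has an interval that lies apart from 0 and from every other point of its panel, and the wide intervals of MT-TM, MT-TD and MT-TK come with counts of 5 to 115 per library.

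Other mtDNA genes and the nuclear genes that act on mitochondrial tRNAs were compared with the control in the same fit. Over all genes and the 11 treatments, 0.171% of comparisons were called and 9.79% had an unadjusted p under 0.05. Of the 7 remaining tRNA genes of the heavy-strand transcript 5 passed the filter, and none was called in 55 comparisons by edgeR, with 15 (27.3%) at an unadjusted p under 0.05. Of the 8 tRNA genes of the opposite strand, all 8 were tested, and 4 of 88 comparisons (4.55%) were called, all higher, with 28 (31.8%) at an unadjusted p under 0.05. The lowest adjusted p values were those of MT-TY, the tyrosine tRNA gene before the COX1 frame, after COX1 silencing (log2 fold change 2.21 with a standard error of 0.093 and an adjusted p = 3.61e-25), and of MT-TE, the glutamate tRNA gene before the CYTB frame, after CYTB silencing (3.35, standard error 0.197, adjusted p = 1.45e-18, both edgeR). These lie on the strand opposite to the frame, and the use of strand in counting is not given in the sources used here, so reads of a tRNA gene and of the transcript opposite to it could be mixed. The frames after the 7 tRNA genes were called higher in 4 of 77 comparisons (5.19%) and lower in none, with 24 (31.2%) at an unadjusted p under 0.05.

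No gene of the nuclear lists was called. The enzymes that cut and complete tRNA ends are TRMT10C, HSD17B10 and PRORP (listed as KIAA0391), the subunits of RNase P, with ELAC2 and TRNT1, which adds the CCA. These 5 genes were not called in any of 55 comparisons by edgeR (10, or 18.2%, at an unadjusted p under 0.05). After ND1 silencing, where MT-TL1 fell, their median log2 fold change was 0.02, beside -0.003 over all genes tested. No call was made among 14 genes of RNA maturation and decay (154 comparisons, 9 or 5.84% at an unadjusted p under 0.05), 5 of transcription (55 comparisons, 3 or 5.45%), 13 of tRNA modification (143 comparisons, 17 or 11.9%) or the 6 synthetases that charge these tRNAs (66 comparisons, 11 or 16.7%).

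The genes whose pattern was most like that of each tRNA gene were found by Pearson correlation of log2 CPM, centred on the batch, over the 46 libraries and among the 20272 genes tested. These values are a description, since the libraries share conditions and depth. For MT-TL1 the most alike were MAN2B1 (r = 0.64), MT-TM (0.62) and AL139260.1 (0.61). Without the ND1 libraries these were 0.05, 0.56 and 0.26, so the likeness to MT-TM alone was kept to within 0.1. MT-TM was most like MT-TV (0.68), MT-TL1 (0.62) and ZNF343 (0.59). MT-TG went with MT-TH (0.74), MT-TR (0.62) and MT-ND5 (0.61), and MT-TR with MT-TH (0.76), TTC27 (0.72) and MYOF (0.71). The genes nearest to MT-TD were AC010616.1 (0.67), C9orf66 (0.58) and SYTL3 (0.56), and those nearest to MT-TK, AC142472.1 (0.50), AC026150.2 (0.49) and PLCD4 (0.49).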

How the data were processed

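From poly(A)-enriched RNA of 46 libraries, the authors deposited unnormalized counts of reads on each gene. How reads were aligned and counted, and whether strand was used, is not given in the sources used here. The submitters' processing notes name R 4.3.0, DESeq2 1.40.2, limma 3.56.2 and GRCh38.p12. Reads of 50 bases are single-end in the labels and paired-end in the paper. Conditions came from the labels and batches from the study's methods. Counts were analysed in R 4.3.3 with edgeR 4.0.16 (TMM, filterByExpr with a minimum count of 10, condition and batch terms, quasi-likelihood F test, Benjamini-Hochberg adjustment over 20272 genes per comparison). The comparison of ND1 with the control was also run on simulated counts with known changes. Those counts had no batch effect, and comparisons with the other treatments were not simulated. Log2 CPM used a prior count of 2. The alternatives were DESeq2 1.42.0, no batch term, a replicate block, other library sizes, other filters, only the libraries compared, each batch alone, leaving out each library and, added after seeing the data, ND1 left out of a mean. Total counts were 18876395 to 100698084 per library. Each of the 66 replicate pairs differed beyond sampling noise (chi-square per degree of freedom 3.28 to 20.8). The tRNA genes and the gene lists were chosen with earlier results of these data known. Genes named with values by rule are the 7 tRNA genes, the genes directly before and after them, the 2 listed genes with the lowest adjusted p where a list had a call, and the 3 genes most correlated with each tested tRNA gene. Identity markers and MT-TV are named outside that rule.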

Additional observations from a re-analysis of the deposited data

Results flagged for a closer look

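MT-TL1 differed between treatments when a treatment was compared with the mean of the other 10, a comparison without the control libraries. After ND1 silencing it was lower by -1.93 on the log2 scale (standard error 0.131, adjusted p = 3.49e-16, edgeR), with 4 of 4 ND1 libraries below every other library. After COX3 silencing it was higher by 0.73 (standard error 0.093, adjusted p = 1.52e-06, edgeR), with 3 of 4 COX3 libraries between 146% and 159% of the mean control of the same batch and replicate 4 at 90.2%. The mean set against COX3 contains the low ND1 libraries, and with ND1 left out the difference was 0.54 (adjusted p = 0.00322, edgeR). Among 70 groups of 4 libraries looked at for the 7 tRNA genes, none had a library beyond the 95% critical value of Dixon's test.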

How the results depend on the processing

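The fall of MT-TL1 after ND1 silencing was called under all 11 alternatives and with each of 8 libraries left out, with log2 fold changes of -2.15 to -1.87 and -2.16 to -1.87. Adjusted p ranged from 5.56e-94 to 9.37e-06. The number of calls against the control, 1, became 2 with a replicate block, 7 without the filter on low counts and 2 with only the libraries compared. Among cognate comparisons it became 2 with the replicate block and 2 without the filter, and among cognate comparisons with the other treatments 2 and 3. All calls against the other treatments, 2, became 3 with the replicate block, 10 without the filter, 1 in batch 2 alone and 3 without COX3 replicate 4 (MT-TM after COX3 silencing, 1.13, adjusted p = 0.0249). The gain under the replicate block was MT-TR after ND4L silencing (-0.68, adjusted p = 0.0466, and -0.62, adjusted p = 0.0306, against the other treatments), also called without the filter (-0.66, adjusted p = 0.000971). With only the libraries compared it was MT-TL1 after CYTB silencing (-0.33, adjusted p = 0.0361). The cause was not tested. The share of all genes called under these alternatives is not given here, so the counts above have no background beside them. Over all genes tested, treatment libraries correlated with the control library of the same number within batches at only -0.0097 to 0.052. The numbers were therefore not taken as pairs. Treatments were not correlated with each other, so a tie between same-numbered libraries of different treatments was not tested. Replicate 4 was lowest for MT-TR in 10 and for MT-TL1 in 8 of 11 treatments, but in neither case in the control. DESeq2, other scalings and the stricter filter changed none of these counts, and leaving out a library changed only the one named. With 1 library left out the cognate estimates that were not called kept their sign, at -0.88 to -0.43 for MT-TM, -0.82 to -0.32 for MT-TD, 0.08 to 0.32 for MT-TK, -0.38 to -0.06 for MT-TG and -0.83 to -0.44 for MT-TR. MT-TG after ND3 silencing turned from -0.27 to 0.10 in batch 1 alone. No scaling moved the median of all genes by more than 0.0941. Counts of 5 to 115 limit MT-TM, MT-TD and MT-TK, and MT-TL2 did not pass the filter and was called in no comparison without it.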

Other observations

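MT-TV, the valine tRNA gene between the 12S and 16S rRNA genes and so upstream of MT-TL1 in the same transcript, was looked at because its pattern was most like that of MT-TM, and it was chosen after its values were seen. It had 21, 15, 21 and 37 counts in the control and 7, 19, 7 and 7 after ND1 silencing, which gave -1.35 on the log2 scale with a standard error of 0.414 and was not called (edgeR adjusted p = 0.145). Of the ND1 libraries, 3 lay below the control libraries in counts and 1 lay among them.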
